A study of Danio rerio with 3 samples.

Results

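The transcriptome of whole zebrafish larvae with activated Notch in the endothelium was compared with that of wild-type larvae at 3 days post-fertilization. The comparison took in every gene with at least 50 corrected reads summed over both libraries, which were 20061 of 27882 genes in the files (71.9%). The NICD larvae carried Tg(fli1ep:GAL4FF)ubs3, in which an endothelial fli1 promoter drives the GAL4FF activator, together with tg(UAS:NICD)kca3, which places the Notch intracellular domain under GAL4 control. The HRAS larvae carried the same driver with Tg(UAS:eGFP-HRASV12)io006, an oncogenic HRAS fused to green fluorescent protein, and their levels are given only as a further value beside the comparison. The control larvae were wild type, and all 3 groups were of the AB background. The labels give the control no driver, and effects of the driver and of NICD cannot be told apart. Each group was 1 library, and the labels do not say how many larvae went into it. No difference therefore had a replicate check, no p-value was computed, and every statement compares these libraries and not the conditions.

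Notch is a receptor that is cut when a ligand of the Delta or Jagged type on a neighbouring cell binds it. The fragment released, the Notch intracellular domain, enters the nucleus, joins the DNA-binding protein RBPJ and switches on repressors of the Hairy and Hey families. In vessels, Notch activity is known for favouring arterial over venous fate and for restraining sprouting. The driver acts in the endothelium, whereas RNA of whole larvae holds all tissues, so the cells with the transgene were only a part of what was measured.

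Corrected reads totalled 21944303 in NICD, 41105619 in HRAS and 26384466 in the control. A floor of 3 reads stood at 0.136 CPM (reads scaled to a common library size) in the NICD library, 0.073 CPM in HRAS and 0.114 CPM in the control. Levels are given on this CPM scale, adjusted with TMM factors, and are not corrected for transcript length. A gene was called higher or lower where the ratio of scaled reads was at least 2-fold and the exact conditional binomial 95% interval of that ratio excluded 1. The bracketed range after a fold is this interval, which covers counting error only. Of 47 lists of tissue markers, 47 had at least 1 measured defining gene, and 1 of the 137 matched defining genes was at 0 in a library. Muscle, liver, eye, skin, nervous system, blood and vessel markers were thus all present in RNA of these whole larvae.

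Of the 20061 genes measured, 715 (3.56%) were higher in NICD and 626 (3.12%) were lower, which together made up 6.68%. The middle of the distribution lay close to 0, with a median log2 ratio of 0.03 and quartiles at -0.23 and 0.32, and 10662 genes lay above 0 and 9399 below. Genes called higher together held 13829 CPM in NICD and 4731 CPM in the control. Genes called lower held 9473 CPM in NICD and 26188 CPM in the control. Most calls were of rare transcripts, since genes called higher had a median of 133 reads over both libraries and genes called lower a median of 180, where all measured genes had 655. In the tenth of genes with the fewest reads 13.4% were higher and 9.43% lower, and in the tenth with the most reads 1.1% were higher and 1.55% lower. On unique reads alone, 426 of the 452 genes called higher with at least 50 unique reads also passed 2-fold, as did 386 of the 408 called lower, and 0 had the opposite sign.

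**Figure D1:**
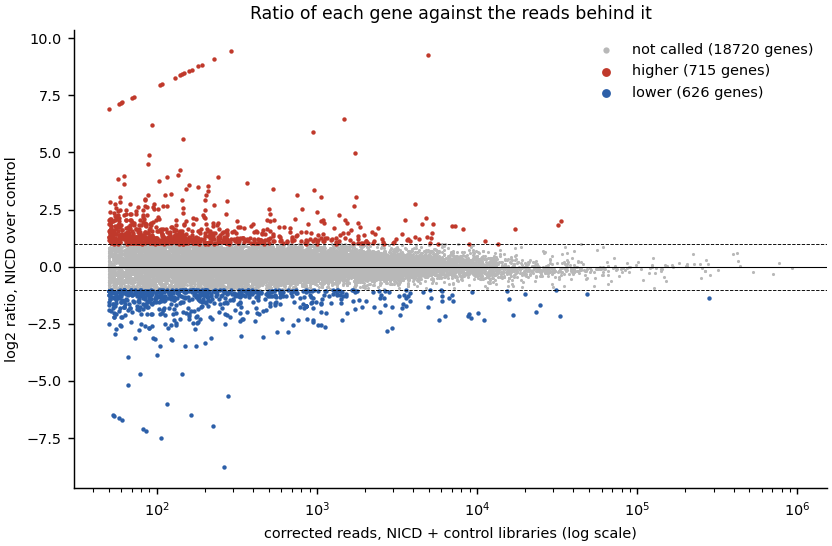
Log2 ratio of NICD over control (vertical axis) for each of 20061 genes against its corrected reads in both libraries summed (horizontal axis, log scale), with the 715 genes called higher in red, the 626 called lower in blue and dashed lines at 2-fold. Calls thin out to the right, from 13.4% higher in the tenth with the fewest reads to 1.1% in the tenth with the most.

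The ratio also varied with transcript length. The median log2 ratio was -0.06 in the tenth of genes with the shortest transcripts (106 to 862 bases) and 0.21 in the tenth with the longest (4949 to 93957 bases). Across the 20061 genes, which are not independent replicates, Spearman's rho of length and log2 ratio was 0.16. The part of length in any single result was not tested. For some lists only, the median is also given below after the median of each length bin had been set to 0. Other medians shifted too, the arterial list from 0.26 to 0.15, Hedgehog from 0.26 to 0.13 and complement from 0.57 to 0.46. The rod list went from -1.23 to -1.34, and the glucocorticoid list from 0.81 to 0.80.

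**Figure D2:**
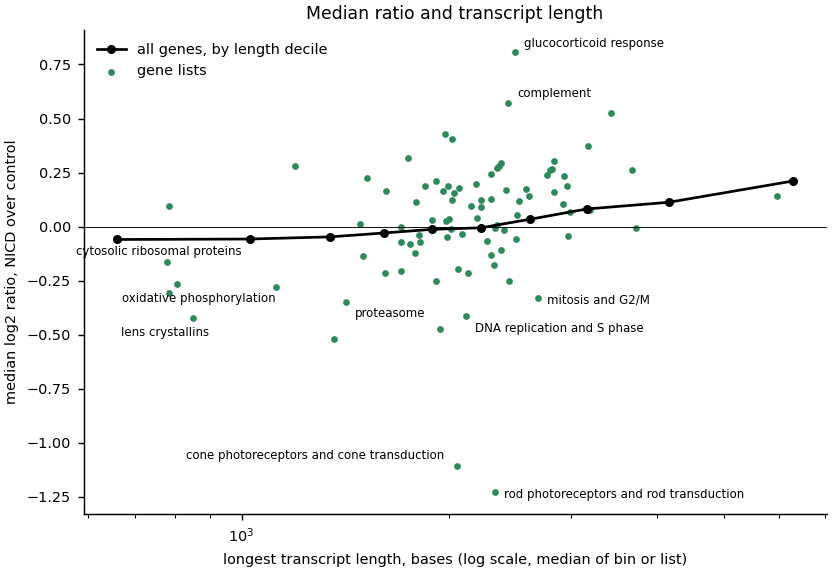
Median log2 ratio of NICD over control (vertical axis) against the longest transcript length in bases (horizontal axis, log scale) for all measured genes in 10 bins of length (black line) and for the 88 gene lists (green points, each at its members' median length). The black line lies between -0.06 and 0.21, while the glucocorticoid list stands at 0.81 and the rod list at -1.23.

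Across 88 lists of tissue and process genes, the medians furthest above that of all genes belonged to the glucocorticoid response, complement and thrombocytes, and those furthest below to rods, cones and the exocrine pancreas. Over all genes 3.56% were called higher and 3.12% lower, and the calls of each list below stand beside these shares. The thrombocyte list rests on 10 measured genes, at a median of 0.53 with an order-statistic interval from -0.08 to 1.09, and had 0 members higher on unique reads. Its 2 members called higher on all reads (20%) were vwf and f5, which are also on the coagulation list below. The 1 measured defining gene of the thrombocyte list, GP1BB, stood at 0.948 and was not called. With the median of each length bin set to 0 its median was 0.38, against 0.39 for neutrophils. In RNA of whole larvae, fewer cells of a type and less RNA per cell cannot be told apart, and this holds for each tissue described below.

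**Figure D3:**
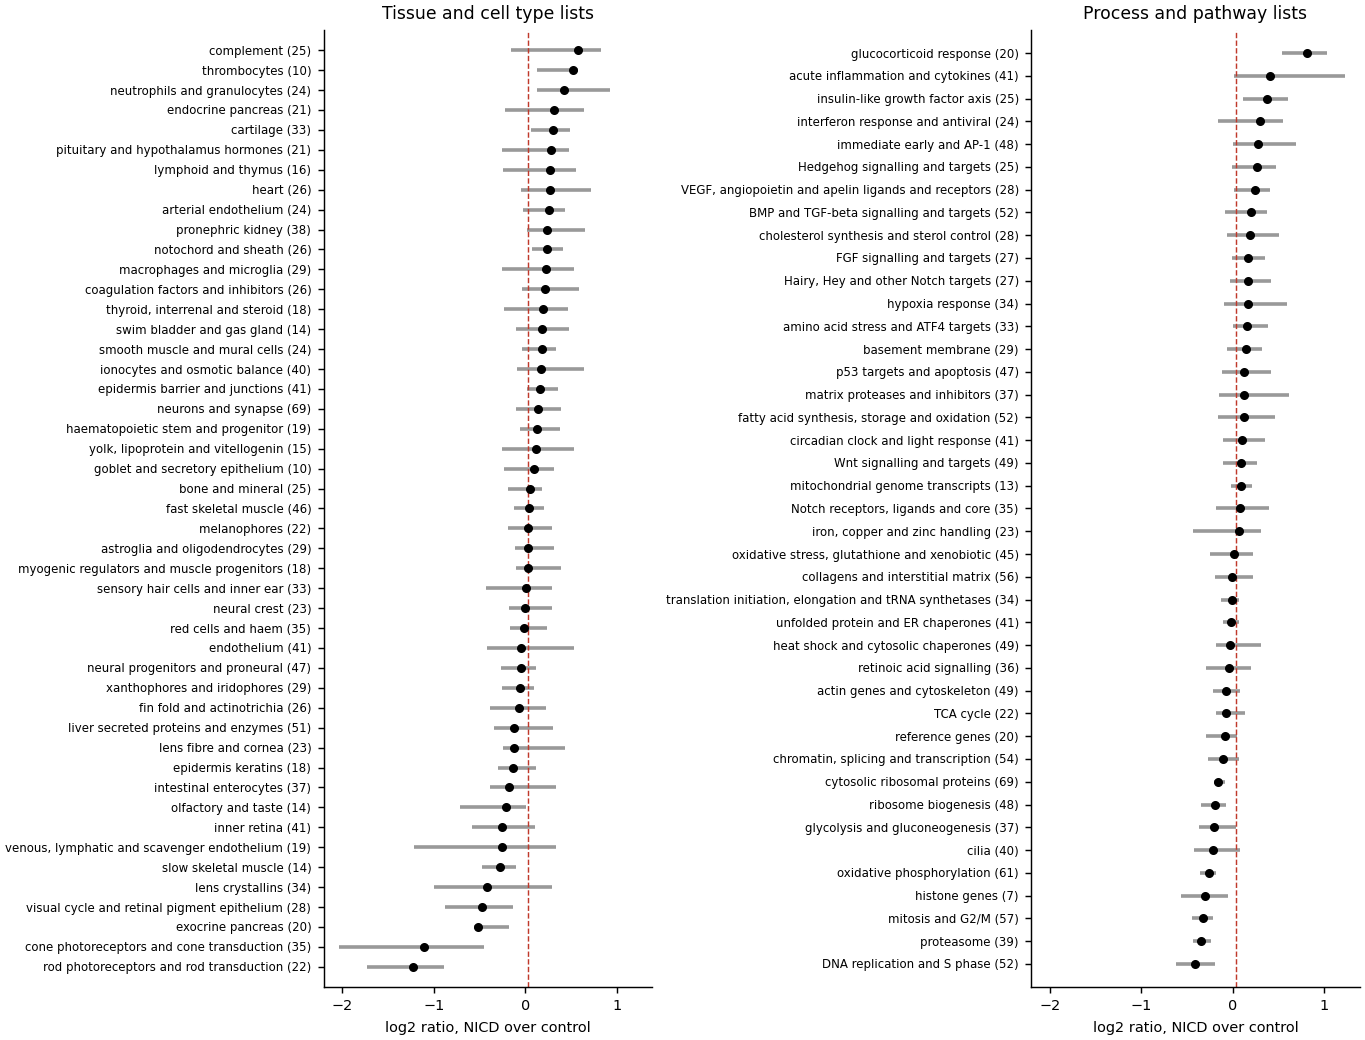
Median (black point) and quartiles (grey bar) of the log2 ratio of NICD over control for the measured members of 47 tissue lists and 41 process lists, with the number of measured members in brackets and a dashed red line at the median of all measured genes, 0.03. The glucocorticoid response tops the process lists at 0.81, and rods and cones lie lowest among the tissue lists at -1.23 and -1.11.

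The vessel itself, where the driver acts, differed in parts of its gene set. Genes of the venous, lymphatic and scavenger endothelium had 0 of 19 measured members higher and 7 lower, against 3.56% and 3.12% over all genes, and a median log2 ratio of -0.25. Of the 19 members 9 lay above 0, and the summed level was 1393 CPM in NICD, 2454 CPM in HRAS and 1234 CPM in the control. On unique reads 4 of 16 members were lower, at a median of -0.04. Among the lower members stab2, a scavenger receptor that takes up hyaluronan, had 6.03 CPM in NICD, 130 CPM in HRAS and 35.3 CPM in the control, and was lower at 0.171 of the control [0.141 to 0.205]. On its few unique reads, 8.02% of the total, the ratio of stab2 was 0.501. The lymphatic hyaluronan receptor gene lyve1b was lower at 0.280 [0.185 to 0.404]. The receptor genes GPR182 and CALCRL stood at 0.409 [0.314 to 0.524] and 0.455 [0.293 to 0.680], both with 100% unique reads. The related scavenger receptor gene stab1 had 50.4 CPM in NICD and 63.0 CPM in the control, which did not pass the rule.

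Arterial genes had 0 of 24 members higher and 0 lower and a median log2 ratio of 0.26, with 18 members above 0. The arterial Notch ligand gene dll4 had 23.1 CPM in NICD, 23.6 CPM in HRAS and 15.4 CPM in the control, a fold of 1.5 [1.32 to 1.72]. The endothelial list as a whole had 1 of 41 higher and 3 lower, with a median of -0.04. The higher member was vwf at 2.26-fold [1.82 to 2.83], which is also on the coagulation list. The junctional cadherin gene cdh5 stood at 0.873 of the control and the VEGF receptor gene KDR at 1.01. The list was thus uneven, with its lower members also on the venous list.

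Notch components had 0 calls, while their targets were called in both directions. Of 35 receptors, ligands and core factors 0 were higher and 0 lower. The identifier named NOTCH1 had 64.6 CPM in NICD, 50.2 CPM in HRAS and 50.5 CPM in the control. No source used here says whether reads of the transgene fell under this identifier, and its level is no check of the label. Of 27 Hairy, Hey and other targets, 2 were higher and 2 lower (7.41% each), against 3.56% and 3.12% over all genes. Their median log2 ratio was 0.17, with 20 members above 0. The repressor genes her4.5 and her12 were higher at 2.29-fold [1.90 to 2.78] and 2.23-fold [1.73 to 2.88], although none of the reads of her12 were unique. The better known targets her4.1 and HEY1 had folds of 1.35 and 1.19 and were not called. The lower members were HELT at 0.408 [0.239 to 0.654] and HES2 at 0.447 [0.261 to 0.722], and none of the reads of HES2 were unique.

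Genes that respond to glucocorticoids stood highest of the process lists. Glucocorticoids such as cortisol are made by the interrenal gland, the fish counterpart of the adrenal cortex, under control of the pituitary, and act through a nuclear receptor that switches on genes of fuel release and feedback. Of 20 measured members 6 were higher and 0 lower, 19 lay above 0, and the median log2 ratio was 0.81, against 0.03 over all genes. FKBP5, a chaperone that dampens the receptor, had 181 CPM in NICD, 62.5 CPM in HRAS and 49.3 CPM in the control, and was 3.67-fold higher [3.45 to 3.91]. PCK1, a rate-limiting enzyme of glucose synthesis, had 235 CPM in NICD, 242 CPM in HRAS and 68.9 CPM in the control, a fold of 3.41 [3.23 to 3.60]. For PCK1 the NICD and HRAS levels lay close together, whereas for FKBP5 the NICD library stood alone. Summed over the list the levels were 1556 CPM in NICD, 1394 CPM in HRAS and 856 CPM in the control. The HRAS sum was thus nearer to that of NICD than to that of the control. The salt-regulating kinase gene sgk1 was 2.29-fold higher [2.13 to 2.47] and TAT, which breaks down tyrosine in the liver, 2.13-fold [1.75 to 2.60]. The transcription factor gene CEBPB was higher at 2.67-fold [2.44 to 2.92].

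Below the limit stood KLF9, a transcription factor gene that glucocorticoids switch on, at 1.90-fold with 25.1 CPM in NICD, 13.6 CPM in HRAS and 13.2 CPM in the control. The lipid enzyme gene LPIN1 stood at 1.86-fold and hsd20b2, whose product inactivates cortisol in fish, at 1.85-fold. An identifier named PER1, a clock gene, was 2.02-fold higher [1.75 to 2.33] on all reads and 1.21 on unique reads, and a second one had 1.6. The receptor gene NR3C1 had 63.4 CPM in NICD and 56.2 CPM in the control. The 1 member below 0 was tsc22d3, at 69.8 CPM in NICD and 77.2 CPM in the control.

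**Figure D4:**
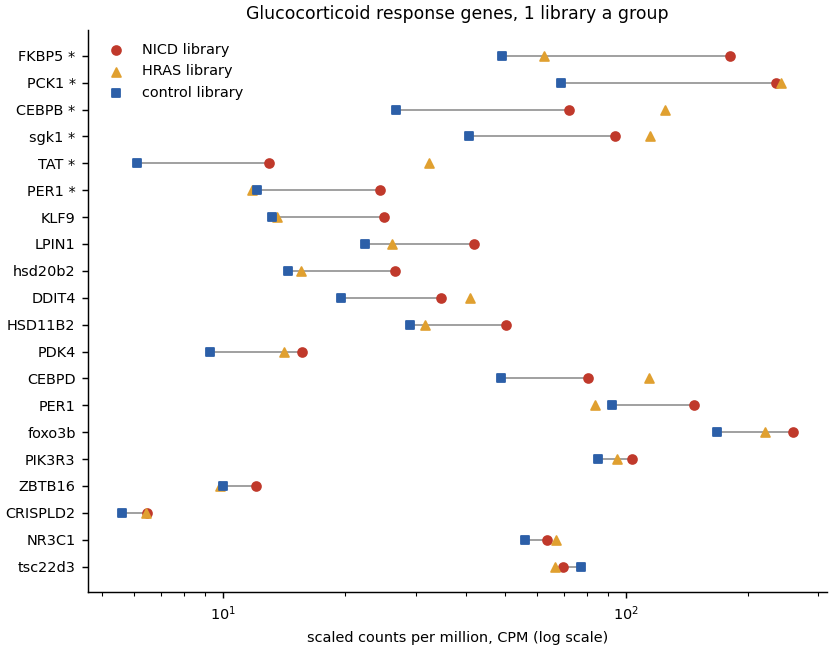
Scaled CPM (horizontal axis, log scale) of the 20 measured genes of the glucocorticoid list in the NICD library (red circles), the HRAS library (orange triangles) and the control library (blue squares), with 1 library a group, a grey line joining NICD and control, and an asterisk on the 6 genes called higher. The red circle lies right of the blue square in 19 of the 20 genes, tsc22d3 being the exception.

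Hormone genes were mostly rare in these libraries. Of 21 measured genes of pituitary and hypothalamus hormones, 2 were higher and 1 lower. The prolactin gene prl, whose hormone keeps salts in fresh-water fish, had 5.94 CPM in NICD, 18.9 CPM in HRAS and 2.02 CPM in the control, a fold of 2.92 [2.12 to 4.12]. The gene oxt, which encodes the fish form of oxytocin, had 80 reads in NICD, 66 in HRAS and 16 in the control and was 5.80-fold higher [3.45 to 10.9]. POMC, the precursor of the hormone that drives cortisol release, had 8.79 CPM in NICD and 4.61 CPM in the control, a fold of 1.90 that was not called. The reproductive hormone gene gnrh3 was lower at 0.364 [0.222 to 0.563]. In the list of thyroid, interrenal and steroid genes, 2 of 18 were higher and 1 lower. NR5A1, a steroidogenic transcription factor gene, had 44 reads in NICD and 11 in the control. The enzyme gene cyp21a2 was 2.28-fold higher [1.27 to 4.34], while cyp11c1, which makes the last step to cortisol, was lower at 0.347 [0.205 to 0.549]. These 2 enzyme genes thus lay on opposite sides of the control. Of the 13 list members with at least 50 unique reads, 2 were higher and 0 lower on those reads.

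Among islet genes, 3 of 21 (14.3%) were higher and 0 lower. Of the 17 with at least 50 unique reads, 1 was higher and 0 lower on those reads. Both measured glucagon identifiers, gcga and GCG, were higher at 2.36-fold [1.89 to 2.99] and 2.1-fold [1.61 to 2.77]. The insulin gene ins had 10.9 CPM in NICD, 12.1 CPM in HRAS and 8.42 CPM in the control, a fold of 1.3. The third called gene was an identifier named SCG5, a granule chaperone, with 166 reads in NICD, 0 in HRAS and 0 in the control. Of these 166 reads only 10 were unique. On all reads, against the floor of 3 reads, SCG5 was at least 65.8-fold higher in NICD.

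Genes of fuel use were called on both sides. Of 52 genes of fatty acid synthesis, storage and oxidation 5 (9.62%) were higher and 0 lower, with a median log2 ratio of 0.12. They were the uncoupling protein genes ucp3 at 3.21-fold [2.71 to 3.83] and UCP1 at 2.01-fold [1.85 to 2.17], the fat lipase gene PNPLA2 at 2.62-fold [2.25 to 3.08], the desaturase gene SCD and the lipid sensor gene PPARA. PNPLA2 had 23.5 CPM in NICD, 15.8 CPM in HRAS and 8.96 CPM in the control. Of the 46 members of the fatty acid list with at least 50 unique reads, 3 were higher and 0 lower on those reads. In glycolysis and glucose synthesis 2 of 37 were higher and 3 lower, with a median of -0.20. Besides PCK1, the higher one was PFKFB3, a regulator of glycolysis, at 2.39-fold [2.13 to 2.69]. Among the lower ones were an identifier of the glucose transporter SLC2A1 at 0.250 [0.186 to 0.326] and the aldolase gene ALDOC at 0.491 [0.348 to 0.678]. PDK2, a kinase that inhibits pyruvate dehydrogenase, had 37.3 CPM in NICD, 22.7 CPM in HRAS and 9.30 CPM in the control, a fold of 4.0 [3.47 to 4.65].

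Hypoxia genes had 5 of 34 (14.7%) higher and 1 (2.94%) lower, and a median of 0.16. Both identifiers named ADM, a vessel-dilating peptide, were higher at 3.75-fold [2.79 to 5.16] and 2.78-fold [2.27 to 3.43]. The insulin-like growth factor binding protein gene igfbp1b had 7.57 CPM in NICD, 22.99 CPM in HRAS and 2.21 CPM in the control, a fold of 3.40 [2.53 to 4.70]. The other higher members were PFKFB3 and ERO1A, an oxidase of protein folding, at 2.53-fold [1.68 to 3.92], and the lower one was SLC2A1. VEGFA at 0.936 and EGLN3, an oxygen-sensing hydroxylase, at 1.56 did not pass.

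Liver genes were called in both directions. Of 51 measured genes 5 (9.8%) were higher and 3 (5.88%) lower, with a median log2 ratio of -0.12. CP, the copper-carrying ceruloplasmin gene, had 245 CPM in NICD, 235 CPM in HRAS and 71.3 CPM in the control, a fold of 3.44 [3.26 to 3.62]. AGXT, a peroxisomal enzyme of glyoxylate removal, had 125 CPM in NICD, 76.4 CPM in HRAS and 29.96 CPM in the control, a fold of 4.16 [3.84 to 4.51]. The lower genes were GC, the vitamin D carrier, at 0.338 [0.281 to 0.403], the retinol carrier gene rbp4l at 0.388 [0.364 to 0.414] and the protease inhibitor gene a2ml at 0.437 [0.423 to 0.451]. The defining genes fabp10a and apoa2 had folds of 0.822 and 0.920 and were not called. The transferrin gene tfa had 1000.4 CPM in NICD, 987 CPM in HRAS and 1677 CPM in the control, at 0.597, with almost none of its reads unique.

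Complement, the chain of plasma proteins that tags microbes, had 5 of 25 members (20%) higher, 1 (4%) lower and a median of 0.57. Summed over the list the levels were 1898 CPM in NICD, 2572 CPM in HRAS and 1297 CPM in the control, so HRAS stood highest. The C3 copy c3a.2 had 50.1 CPM in NICD, 28.3 CPM in HRAS and 10.3 CPM in the control, a fold of 4.84 [4.24 to 5.56]. Of 7 measured C3 copies 2 were higher, c3a.2 and c3a.3, and 6 lay above 0. Reads shared between these near-identical copies may have been split in other ways, and 3.27% of the reads of c3a.2 were unique. The alternative pathway genes cfd and cfb were 2.86-fold [2.61 to 3.14] and 2.46-fold [2.32 to 2.61] higher. The gene c4b was 2.66-fold higher [2.47 to 2.86] on all reads and 1.54 on unique reads. MASP2 was lower at 0.50 [0.429 to 0.580], but its unique reads, 0.939% of the total, gave 1.87. The late components c5 and c9 had folds of 0.951 and 1.21.

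Coagulation genes had 3 of 26 members higher and 0 lower, with a median of 0.21. Among them were the platelet adhesion gene vwf at 2.26-fold [1.82 to 2.83] and the cofactor gene f5 at 2.13-fold [1.96 to 2.31]. On unique reads vwf had a fold of 1.93 and f5 of 1.82. All 3 fibrinogen chains lay between 1.52 and 1.67 and were not called.

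Inflammation genes had 12 of 41 members (29.3%) higher and 0 lower, and a median log2 ratio of 0.41. Beside the matrix protease gene MMP9, the chemokine gene cxcl18b had 5.08 CPM in NICD, 7.37 CPM in HRAS and 1.37 CPM in the control, a fold of 3.66 [2.52 to 5.55]. The gene irg1l, a relative of the itaconate-producing enzyme gene ACOD1, had 1758 reads in NICD, 2102 in HRAS and 656 in the control, a fold of 3.18 [2.91 to 3.49]. ACOD1 itself was 2.96-fold higher [2.14 to 4.18] and the receptor gene tnfrsf9a 3.30-fold [2.58 to 4.3]. Both identifiers named SOCS3, a feedback inhibitor of cytokine receptors, were higher at 2.36-fold [2.09 to 2.68] and 2.18-fold [1.89 to 2.51], all on unique reads. Of 8 measured SOCS genes 3 were higher and 7 lay above 0. The AP-1 genes JUNB and FOSL2 were 2.55-fold [2.18 to 2.99] and 2.22-fold [2.0 to 2.47] higher, while JUN and egr1 had folds of 1.37 and 1.6 and were not called.

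Markers of white blood cells were less uniform. Of 24 neutrophil and granulocyte genes 4 were higher and 0 lower, and MMP9 and mmp13a among the 4 are also on the inflammation list. The granule proteoglycan gene srgn was 2.13-fold higher [1.87 to 2.43] and cybb, a subunit of the oxidase that makes superoxide, 2.02-fold [1.69 to 2.44]. The lysozyme gene lyz had 68.5 CPM in NICD, 39.6 CPM in HRAS and 34.8 CPM in the control, just under the limit at 1.97. The eosinophil-type peroxidase gene epx is not among the 24 genes and so is not in their count of lower calls. It was lower, with 10 reads in NICD, 174 in HRAS and 139 in the control, at 0.0895 [0.0401 to 0.162]. Of 29 macrophage genes 1 was higher and 1 lower (3.45% each), close to the shares over all genes. The median log2 ratio of the macrophage list was 0.22, with 19 members above 0 and 10 below. Its summed level was 1176 CPM in NICD, 1613 CPM in HRAS and 1438 CPM in the control, thus lower in NICD than in the control. The 1 defining gene matched, marco, stood at 1.45. An identifier named MPEG1, a macrophage perforin gene, was not matched to this list. It had 37.2 CPM in NICD, 12.3 CPM in HRAS and 7.09 CPM in the control. Its fold was 5.23 [4.47 to 6.18], with 100% unique reads. Of 16 lymphoid genes 2 were higher and 1 lower, and foxn1, a transcription factor gene of the thymus epithelium, was lower at 0.238 [0.148 to 0.359].

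Heart genes had 4 of 26 members (15.4%) higher and 0 lower, and a median of 0.27. Their summed level was 3710 CPM in NICD, 2061 CPM in HRAS and 2018 CPM in the control. Of these sums both identifiers named TTN made up 2262 CPM in NICD, 716 CPM in HRAS and 593 CPM in the control. Most of the rise in the sum over the control was thus in TTN. Titin, the giant spring protein of striated muscle, is on the skeletal muscle list too. Its identifiers had 1166 and 1096 CPM in NICD, 362 and 354 CPM in HRAS, and 288 and 305 CPM in the control, with folds of 4.05 [3.94 to 4.15] and 3.59 [3.50 to 3.68]. They are also among the longest transcripts of the files, at a median of 88386 bases. The natriuretic peptide genes nppa and nppb, which stretched heart muscle releases, were 2.76-fold [2.39 to 3.19] and 6.39-fold [3.62 to 13] higher. Of nppa none of the reads were unique, and nppb had 72 reads in NICD, 144 in HRAS and 13 in the control. The myosin genes MYL7 and MYH6 had folds of 1.4 and 0.954 and were not called.

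In skeletal muscle 2 of 46 fast-fibre genes (4.35%) were higher, both named TTN, and 1 (2.17%) was lower. Over all genes the shares were 3.56% and 3.12%. The median of the fast-fibre list was 0.04. The filamin gene FLNC, an actin crosslinker of the muscle disc, had 111 CPM in NICD, 50.2 CPM in HRAS and 47.4 CPM in the control, a fold of 2.35 [2.19 to 2.52]. Nebulin, NEB, another giant protein, had 1485 CPM in NICD, 824 CPM in HRAS and 882 CPM in the control, at 1.68. Abundant contractile genes lay on both sides of 1, with atp2a1, the calcium pump of fast fibres, at 1.52 and the myosin gene myhz2 at 0.521. Of 9 identifiers named as parvalbumins, small calcium-buffering proteins, 8 lay below 0 and 0 were called. These 9 were taken by symbol and not from the fast-fibre list, and their tissue was not checked. Of 14 slow-fibre genes 0 were called and 11 lay below 0, at a median of -0.28. The gene actc1c, an actin, had 4957 reads in NICD, 4 in HRAS and 9 in the control.

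Ionocytes are the skin cells that take up salts and excrete acid and ammonia in fresh water. Of 40 genes of their list 6 (15%) were higher and 0 lower, with a median of 0.17. The calcium channel gene TRPV6 had 53.4 CPM in NICD, 43.6 CPM in HRAS and 14.1 CPM in the control, a fold of 3.79 [3.37 to 4.27]. The ammonia transporter gene RHCG had 61.7 CPM in NICD, 25.3 CPM in HRAS and 16.4 CPM in the control, a fold of 3.75 [3.37 to 4.2]. The chloride channel gene clcn2c and the sodium chloride cotransporter gene slc12a10.2 were 2.66-fold [2.34 to 3.04] and 2.52-fold [2.28 to 2.79] higher. The other 2 members called were the hormone genes prl and oxt. The transporters named act in different ionocyte types, and foxi3a, a transcription factor gene that specifies them, had 14.5 CPM in NICD, 13.7 CPM in HRAS and 8.54 CPM in the control, at 1.70. Of 20 subunits of the proton pump V-ATPase 0 were called and 17 lay below 0, at a median of -0.23.

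Kidney genes had 5 of 38 members (13.2%) higher and 0 lower, and a median of 0.24. The anion exchanger gene SLC4A2 had 59.8 CPM in NICD, 47.8 CPM in HRAS and 27.4 CPM in the control, a fold of 2.18 [1.99 to 2.39]. NPHS1, which encodes nephrin of the filter slit, was 2.3-fold higher [1.65 to 3.27], the chloride channel gene clcnk 3.16-fold [2.06 to 5.08] and the cotransporter gene SLC12A3 2.02-fold [1.52 to 2.72]. The tubule marker CDH17 had 86.02 CPM in NICD and 94.3 CPM in the control and was not called.

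Rods and cones had the largest shares of lower calls among the 47 tissue lists. Photoreceptors detect light with an opsin that activates a G protein, transducin, which in turn switches on a phosphodiesterase and closes a cation channel. Of 22 rod genes 15 were lower and 0 higher, with a median log2 ratio of -1.23, and of 35 cone genes 21 were lower and 0 higher, with a median of -1.11. Summed over their lists, rod genes had 633 CPM in NICD, 416 CPM in HRAS and 1551 CPM in the control, and cone genes 1299 CPM in NICD, 1069 CPM in HRAS and 3856 CPM in the control.

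Each of these steps had lower members. All 5 measured genes named as cone opsins of the opn1 group were lower, between 0.111 and 0.252 of the control. The red opsin gene opn1lw2 had 184 CPM in NICD, 161 CPM in HRAS and 732 CPM in the control. The blue opsin gene opn1sw2 had 66.7 CPM in NICD, 43.6 CPM in HRAS and 283 CPM in the control, at 0.235 [0.222 to 0.249]. Cone transducin, GNAT2, stood at 0.208 and its partner gene gnb3b at 0.225 [0.212 to 0.238], with rod transducin, GNAT1, at 0.297 [0.265 to 0.332]. Both identifiers named PDE6B, the rod phosphodiesterase, were lower at 0.421 [0.344 to 0.510] and 0.296 [0.222 to 0.385], and CNGA1, the rod channel, at 0.340 [0.220 to 0.502].

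GRK7, the kinase that marks activated cone opsin, had 15.6 CPM in NICD, 14.8 CPM in HRAS and 99.5 CPM in the control, at 0.157 [0.140 to 0.175]. The guanylate cyclase activator gene guca1g had 7 reads in NICD, 40 in HRAS and 98 in the control. Both identifiers named PRPH2, a protein that shapes the outer segment discs, were lower at 0.252 [0.226 to 0.279] and 0.229 [0.209 to 0.251]. The identifiers crx and CRX, for a homeobox factor of photoreceptor precursors, stood at 0.829 and 1.03, and six7, a factor of green cones, at 0.831, and none of these 3 was called.

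The neighbours of the photoreceptors were nearer the control. Of 28 genes of the visual cycle and pigment epithelium 4 were lower and 0 higher, at a median of -0.47. One of 3 identifiers named RPE65, the enzyme that regenerates the light-sensing pigment, had 69.6 CPM in NICD, 43.8 CPM in HRAS and 171 CPM in the control, at 0.407 [0.384 to 0.431], and the other 2 stood at 0.711 and 0.713. Of 41 inner retina genes 1 was higher and 2 lower, at a median of -0.25. The bipolar cell factor gene VSX1 stood at 0.577 and the retinal progenitor factor gene atoh7 at 0.790.

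Lens crystallins are the proteins that fill lens fibre cells. Of 23 gamma-M crystallins 9 were lower and 0 higher, at a median of -0.75, and 4 lay above 0, crygm2d1 at a fold of 1.19 among them. On the list of all lens crystallins 9 of 34 were lower on all reads. Of its 27 members with at least 50 unique reads, 5 were lower on those. The gene crygm2d17 had 170 CPM in NICD, 225 CPM in HRAS and 457 CPM in the control, at 0.372 [0.359 to 0.386]. Of 13 beta-type crystallin identifiers 0 were higher and 1 lower, and their median was 0.23, with 5 below 0. Both identifiers named CRYBA2 were among those below, at folds of 0.775 and 0.679. The alpha crystallin CRYAA had 14.8 CPM in NICD, 6.08 CPM in HRAS and 7.62 CPM in the control, at 1.94. Other lens and cornea genes had 1 of 23 higher and 1 lower, the lower one being KERA, a proteoglycan of the cornea, at 0.459 [0.422 to 0.499].

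**Figure D5:**
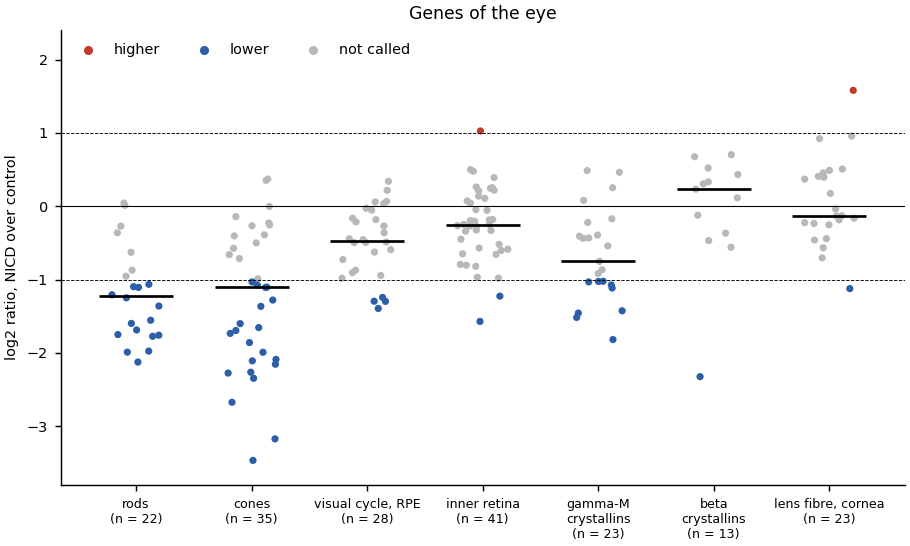
Log2 ratio of NICD over control (vertical axis) of each measured gene of the eye, by group, with genes called higher in red, called lower in blue and not called in grey, a black bar at each group's median, and dashed lines at 2-fold. Rods, cones and gamma-M crystallins have medians of -1.23, -1.11 and -0.75, while that of beta-type crystallins is 0.23.

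Enterocyte genes were called in both directions, and exocrine pancreas genes only as lower. Of 37 enterocyte genes 3 (8.11%) were higher and 4 (10.8%) lower, with a median of -0.18. The higher ones were SLC6A19, a neutral amino acid transporter, with 16.4 CPM in NICD, 9.44 CPM in HRAS and 5.60 CPM in the control, the peptide transporter gene SLC15A1 at 2.2-fold [1.74 to 2.79] and TM4SF4 at 2.29-fold [2.0 to 2.62]. The lower ones were lrp2b and dab2, which take part in endocytosis, and the apolipoprotein genes apoa4b.2 and apoa4b.3. For dab2 and both apolipoproteins under 6 in 100 reads were unique, and their unique reads gave ratios of 1.08, 0.937 and 1.19. The brush border gene VIL1 had 100 CPM in NICD and 100 CPM in the control. ITLN1, which encodes a sugar-binding lectin, had 127 reads in NICD, 347 in HRAS and 9 in the control, a fold of 16 [8.56 to 37.5]. Of 20 exocrine pancreas genes 0 were higher and 2 lower, amy2a at 0.175 [0.0896 to 0.299] and spink4 at 0.392 [0.254 to 0.581], and 19 lay below 0, at a median of -0.52. The trypsin gene prss1 had 45.5 CPM in NICD, 70.4 CPM in HRAS and 70.4 CPM in the control.

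Genes of growth and of the cell's basic machinery had few calls, but most of their ratios lay on 1 side of 0. Of 52 genes of DNA replication 0 were higher and 2 lower, MCM3 and an identifier named RRM2, yet 50 lay below 0, at a median log2 ratio of -0.41. The sliding clamp gene PCNA had 179 CPM in NICD, 213 CPM in HRAS and 263 CPM in the control, at 0.681 [0.655 to 0.708]. Of 57 mitosis genes 0 were called and 53 lay below 0, at a median of -0.33, which became -0.41 after the median of each length bin was set to 0. CDK1, the kinase that starts mitosis, had 33.1 CPM in NICD, 41.1 CPM in HRAS and 46.04 CPM in the control.

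Of 39 proteasome genes 0 were called and 36 lay below 0, at a median of -0.35. Of 61 nuclear genes of oxidative phosphorylation 0 were called and 61 lay below 0, at a median of -0.26, and -0.21 after length bins were set to 0. Among identifiers taken by symbol instead of from the list, 41 of 43 for complex I and 17 of 18 for ATP synthase lay below 0. The 13 transcripts of the mitochondrial genome had a median of 0.09, with 8 above 0 and 5 below. Of 65 mitochondrial ribosomal proteins 58 lay below 0, and of 14 Tim genes, for import into mitochondria, 13 did. The 69 cytosolic ribosomal proteins had a median of -0.16, and -0.11 after length bins were set to 0, with 0 called. A counting interval that excludes 1 is reached by small ratios at these depths, so these shifts are given as sizes only.

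Skeletal tissue was close to the control by the 2-fold rule. Of 33 cartilage genes 0 were called and 28 lay above 0, at a median of 0.31. The aggrecan gene acana, which gives cartilage its water-binding core, had 118 CPM in NICD, 35.8 CPM in HRAS and 60.3 CPM in the control, at 1.95 [1.83 to 2.08]. The more abundant identifier named COL2A1, the main cartilage collagen, had 5563 CPM in NICD, 1476 CPM in HRAS and 3818 CPM in the control, at 1.46. Summed over the list the levels were 14428 CPM in NICD, 5919 CPM in HRAS and 10817 CPM in the control, so the HRAS library stood on the other side of the control. Of 26 notochord genes 0 were called, at a median of 0.23. In bone, 1 of 25 genes was higher, runx2b, a factor of bone-forming cells, at 2.09-fold [1.72 to 2.56], and 1 lower, ACP5, an enzyme of bone-resorbing cells, at 0.203 [0.122 to 0.312]. Of 18 keratins of the epidermis 0 were called, at a median of -0.14.

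The nervous system had few calls. Of 69 neuron and synapse genes 1 was higher and 1 lower, at a median of 0.14 with 47 above 0. The higher one was GAD1, which makes the inhibitory transmitter GABA, at 2.04-fold [1.49 to 2.83], and the lower one was SLC17A7, which loads glutamate into vesicles, at 0.475 [0.413 to 0.544]. The glial glutamate transporter gene SLC1A2 had 5.08 CPM in NICD, 5.45 CPM in HRAS and 15.13 CPM in the control, at 0.337 [0.270 to 0.415]. Of 47 neural progenitor genes 0 were called, at a median of -0.05. Of 12 subunits of the NMDA receptor, a glutamate-gated channel, 1 was higher and 10 lay above 0, at a median of 0.60, the highest among 265 families of genes sharing a symbol stem. Of 20 genes of voltage-gated calcium channels 0 were higher, 1 was lower and 15 lay above 0. Transcripts of both groups are long, with medians of 4418 and 5973.5 bases, and the part of length in these values was not tested.

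Among the other families, the lowest medians were those of opsins, gamma-M crystallins and the Bardet-Biedl genes, which serve the trafficking of proteins into cilia. Of 8 Bardet-Biedl genes 0 were called and 7 lay below 0, at a median of -0.60. The wider cilia list of 40 genes had 1 higher and 0 lower, at a median of -0.21.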

How the data were processed

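RNA of whole larvae was sequenced in 3 libraries. Libraries were prepared with the TruSeq RNA kit of Illumina from 10 ug of Trizol-extracted total RNA, per the labels' protocols. Per the series' design text, reads from an Illumina HiSeq 2000 were analysed in CLC bio Assembly Cell 3.2 against predicted transcripts of Ensembl release 63 for Zv9. The submitters' processing notes also name CASAVA 1.8. No mapping parameters or strand setting are stated by these sources. The authors deposited for each gene counts of unique and non-unique reads, an expected count, headed corrected total reads per the file headers, as well as RPKM, without molecular identifiers.

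Corrected reads were scaled with TMM factors of 1.01 for NICD, 1.00 for HRAS and 0.994 for control (edgeR 4.0.16, R 4.3.3), and 0.5 reads were added to each library before the ratio. The share of corrected reads that was unique came to 51.0% in NICD, 50.3% in HRAS and 50.9% in the control. Intervals are Clopper-Pearson and cover neither the variation among larvae nor how shared reads were assigned. Alternatives were other scalings (DESeq2 1.42.0 among them), unique reads, RPKM, other minimums and fold limits, 5 reads added, thinning and length bins. With 1 library a group no replicate could be left out.

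Names were found for 19635 identifiers (70.4%), of which 10184 are human-style names in capitals, under which paralogs cannot be separated. Of 3375 different symbols on 88 lists 884 were not matched, and 442 were matched only through a capital name without its copy letter. The members, lists and alternatives were chosen with earlier results of these data known. Genes were named by rule: the defining 3 of each list, up to 5 called members with at least 100 reads, 20 genes with the largest CPM change and 15 with the highest or lowest ratio in each direction, and the 10 highest and lowest families. Others were chosen after their values were seen: CALCRL, CNGA1, CRX, crx, HELT, HES2, KDR, KLF9, LPIN1, hsd20b2, MASP2, MCHR1, MYH6, NR3C1, NR5A1, PPARA, SLC25A38, STEAP3, a2ml, amy2a, apoa4b.2, clcnk, cyp11c1, cyp21a2, gnb3b, gnrh3, guca1g, he1.2, lrp2b, nppb, oxt, six7 and stab1. Some genes the rule selects are not reported here.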

Additional observations from a re-analysis of the deposited data

How the results depend on the processing

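The counts of genes called followed the minimum of reads and the fold limit. With a minimum of 10 reads 1293 genes were higher and 1060 lower, with no minimum 1457 and 1139, and with a minimum of 200 reads 258 and 289. A 1.5-fold limit gave 2133 and 1577, and a 4-fold limit 132 and 116. These moves follow from how the rule is built. Under the other scalings, RPKM, unique reads, 5 reads added, thinning and totals without the 20 most abundant genes, between 543 and 742 genes were higher and between 469 and 669 lower, and 0 genes called by the rule as stated were called in the opposite direction. Setting the median of each of 10 length bins to 0, chosen after seeing the data, gave 715 higher and 609 lower, of which 671 and 582 were shared. Of 88 list medians 4 moved beyond their interval from order statistics of the members under it, those of mitosis, ribosomal protein, oxidative phosphorylation and collagen genes, and 1 median each moved under upper quartile scaling and on unique reads. Of 324 genes named by rule 0 changed the sign of a call under these settings, but the fold moved outside its counting interval in 70 under length bins and, of the 277 with at least 50 unique reads, in 66 on those. With fewer unique reads, MASP2, dab2 and apoa4b.3 were called lower while their unique reads gave ratios above 1. Calls rest on few reads in rare genes, and depth limits them most there.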

Other observations

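Some gene groups outside the sections above held single genes far from the control. The hatching enzyme genes he1.1 and he1.2, proteases that free the embryo from its envelope, were lower at 0.162 [0.134 to 0.193] and 0.123 [0.0810 to 0.176], with 135 and 31 reads in NICD, 1020 and 228 in HRAS, and 994 and 304 in the control. Of 24 interferon genes 3 (12.5%) were higher and 2 (8.33%) lower, against 3.56% and 3.12% over all genes. Their median log2 ratio was 0.29, with 15 members above 0 and the highest at 3.13. The lowest member was PSMB10, a subunit of the interferon-induced proteasome, at 0.219 [0.154 to 0.300].

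Of 23 genes of iron, copper and zinc handling 1 was higher, CP, and 3 were lower. The lower ones were the ferritin-like gene fthl28, with 27.4 CPM in NICD, 109 CPM in HRAS and 70.7 CPM in the control, the transferrin receptor gene tfr1b at 0.460 [0.408 to 0.516] and the iron reductase gene STEAP3. Of 36 retinoic acid genes 0 were higher and 3 lower, among them the retinol-binding gene rbp7a at 0.243 [0.185 to 0.313]. The cohesin gene rad21a, whose product holds sister chromatids together, had 13.2 CPM in NICD, 99.1 CPM in HRAS and 92.9 CPM in the control, at 0.143 [0.126 to 0.161].

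Of 35 red cell and haem genes 1 was higher, SLC25A38, a mitochondrial carrier for haem synthesis, with 93 reads in NICD, 154 in HRAS and 17 in the control. The melanin-concentrating hormone receptor gene MCHR1 had 84 reads in NICD, 12 in HRAS and 4 in the control. The mucin gene mucms1 was 7.34-fold higher [5.25 to 10.7]. Of 52 genes of the BMP and TGF-beta pathways 1 was higher and 1 lower, of 25 Hedgehog genes 0 were called, and of 27 FGF genes 0 were called, with medians of 0.20, 0.26 and 0.17. ABCA1, which exports cholesterol from cells, had 253 CPM in NICD, 120 CPM in HRAS and 126 CPM in the control, a fold of 2.01 [1.93 to 2.1].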
